A study of Mus musculus with 12 samples.

Results

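The genes of major histocompatibility complex (MHC) class I presentation were examined in dendritic cells from the spleens of mice with (WT, wild-type) and without (KO, knockout) the microRNA gene Mir142. The 9 genes listed were H2-K1, H2-D1, B2m, Tap1, Tap2, Tapbp, Psmb8, Psmb9 and Psmb10, chosen by name with earlier results of these data known. Of these, 6 genes had probe sets that carried their symbol alone, 17 probe sets among the 28898 single-symbol probe sets of the table. H2-K1 had 4, H2-D1 5, Tapbp 2, Psmb8 2, Psmb9 3 and Psmb10 1. B2m, Tap1 and Tap2 had none under the annotation used and were not analysed here. A further 5 probe sets listed H2-K1 and H2-D1 together and were not used.

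The 4 groups held 3 arrays each: WT cells without stimulation, WT cells given lipopolysaccharide (LPS, a bacterial outer membrane component that activates dendritic cells), KO cells without stimulation and KO cells given LPS. All mice were 10-week-old C57BL/6 males, the WT mice were littermates of the KO mice, and the cells of each array came from 1 spleen by positive selection. The sources used here give neither the design of the knockout allele nor the dose or duration of LPS. Mir142 had no probe set of its own, so the knockout was not checked on the arrays.

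Class I molecules show peptides from inside the cell to CD8 T cells, and dendritic cells use them to prime such cells. Proteasomes that carry the interferon-induced subunits encoded by Psmb8, Psmb9 and Psmb10 cut proteins into peptides, the TAP transporter of Tap1 and Tap2 moves these into the endoplasmic reticulum, and tapasin (Tapbp) bridges the transporter to empty class I molecules. Each molecule pairs a heavy chain, here of H2-K1 or H2-D1, with the light chain beta-2 microglobulin (B2m), and maturing dendritic cells are known to raise surface class I.

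The sequences below are the deleted microRNA and the promoters of the genes that form the class I molecule, shown because genotype and LPS are the factors compared and class I promoters are known to respond to inflammatory signals. All come from RefSeq on GRCm38.p6, written 5′ to 3′ on the strand of the gene. The seed of each mature microRNA, bases 2 to 8, is in capitals, and miR-142a-5p and miR-142a-3p do not share a seed. They lie at chr11:87756867-87756887 and chr11:87756903-87756925 on the + strand.
mmu-miR-142a-5p: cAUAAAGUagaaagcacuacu
mmu-miR-142a-3p: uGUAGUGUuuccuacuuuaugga

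In the promoters, which are the 250 bases before the annotated start, capitals mark matches to an interferon-stimulated response element core (GAAA, any 2 bases, GAAA), to GGGNNTTCC (an NF-kB site), TGACG (the cAMP response element core in the X2 box of class I promoters) and CCAAT (the Y box), searched on both strands. The stretch of H2-K1 lies at chr17:34000348-34000597 on the − strand, that of H2-D1 at chr17:35262844-35263093 on the + strand and that of B2m at chr2:122147437-122147686 on the + strand. The RefSeq bounds of H2-K1 reach 34000619, so its stretch lies inside the annotated gene.
H2-K1: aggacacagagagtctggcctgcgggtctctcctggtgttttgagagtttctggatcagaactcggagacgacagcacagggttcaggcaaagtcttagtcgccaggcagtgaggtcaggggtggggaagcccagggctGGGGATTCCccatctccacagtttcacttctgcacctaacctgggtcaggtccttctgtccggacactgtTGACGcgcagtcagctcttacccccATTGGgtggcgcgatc
H2-D1: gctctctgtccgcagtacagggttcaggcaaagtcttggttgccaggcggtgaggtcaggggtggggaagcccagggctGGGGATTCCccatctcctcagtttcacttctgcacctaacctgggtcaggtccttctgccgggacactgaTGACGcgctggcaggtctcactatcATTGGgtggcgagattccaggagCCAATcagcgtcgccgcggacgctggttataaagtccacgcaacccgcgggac
B2m: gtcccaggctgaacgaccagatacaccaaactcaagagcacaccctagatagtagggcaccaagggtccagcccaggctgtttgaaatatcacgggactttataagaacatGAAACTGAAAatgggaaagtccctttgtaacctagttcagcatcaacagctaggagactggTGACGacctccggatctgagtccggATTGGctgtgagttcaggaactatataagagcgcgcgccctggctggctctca

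The promoters of H2-K1 and H2-D1 both hold GGGNNTTCC, with the same 9 letters GGGGATTCC at each, a motif found in 4.88% of the 27025 promoters of the table. The interferon-stimulated response element core was in that of B2m and in 3.04% of all promoters. Only this exact pattern was searched. That H2-K1 and H2-D1 hold no match therefore does not mean that they lack an interferon response element. TGACG was in 5 of the 8 promoters of these genes that the table lists and in 17.9% of all, and CCAAT was in 6 of the 8 and in 34.5% of all. The promoters of Psmb9 and Tap1 overlap, and their matches are the same sites, counted for both genes. In H2-K1, H2-D1 and B2m a CCAAT on the other strand starts 25 bases downstream of the start of TGACG, an arrangement in 15 promoters of the table (0.0555%), and this spacing was chosen after the matches were seen. A match describes the letters only.

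Psmb9 and Tap1 start at 34187330 and 34187556 on chromosome 17 and are read in opposite directions, so that 1 stretch of 225 bases, chr17:34187331-34187555, lies before both. It is given on the + strand, the strand of Tap1, with the same capitals. It is shown because the single call of the study among these genes fell on a probe set named Psmb9.
Psmb9-Tap1: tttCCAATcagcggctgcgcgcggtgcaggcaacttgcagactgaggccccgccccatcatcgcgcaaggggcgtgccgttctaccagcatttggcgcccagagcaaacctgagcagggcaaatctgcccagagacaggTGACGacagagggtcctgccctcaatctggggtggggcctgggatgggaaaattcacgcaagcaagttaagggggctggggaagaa

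Along chromosome 17, Tapbp lies at 33919478 to 33929290, H2-K1 at 33996012 to 34000619, Psmb9 at 34182030 to 34187330, Tap1 at 34187556 to 34197225, Psmb8 at 34198195 to 34201454, Tap2 at 34204479 to 34216321 and H2-D1 at 35263094 to 35267497. Psmb10 lies apart on chromosome 8 at 105935728 to 105938392, and B2m on chromosome 2 at 122147687 to 122153082. The motif TTCNNNGAA, an interferon-gamma activated site, was in the promoter of Psmb8 and in 7.18% of all promoters.

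The deposited values were log2 signals with array medians of 2.65 to 2.72. The KO LPS array 2 stood apart from the rest. It correlated with the other arrays at 0.936 to 0.958 across probe sets, while the other 11 arrays correlated among themselves at 0.967 to 0.991. The log2 signal of its Gapdh control from the 3′ end exceeded that from mid-transcript by 3.04, against 1.53 to 1.86 on the other 11 arrays, and for Actb the gap was 0.94 against 0.02 to 0.16. Results that rest on it are therefore given with and without this array. Of 11 measured dendritic cell markers, among them Itgax, Flt3 and H2-Aa, 0 had a mean below the table's median of 2.87. The count was also 0 for the measured B and plasma cell, T cell, macrophage and monocyte, and erythroid markers. It therefore did not set dendritic cells apart from other cells.

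The heavy chain genes passed no test for genotype or LPS, and their probe sets with a mean of at least 7 log2 units had their lowest value on KO LPS array 2. H2-K1 probe set 1425336_PM_x_at read 9.29, 9.28 and 9.28 log2 units in unstimulated WT cells and 9.26, 9.36 and 9.27 in WT cells after LPS. It read 9.27, 9.31 and 9.42 in unstimulated KO cells and 9.14, 8.29 and 9.29 in KO cells after LPS. The 11 arrays other than KO LPS array 2 thus spanned 0.28, while that array differed from the lowest of them by −0.86.

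H2-D1 probe set 1451784_PM_x_at showed the same arrangement. It read 9.04, 9.21 and 9.01 in unstimulated WT cells, 8.97, 9.19 and 8.99 in WT cells after LPS, 9.05, 9.07 and 9.10 in unstimulated KO cells and 8.80, 7.39 and 8.95 in KO cells after LPS. All KO LPS arrays lay below every WT LPS array and every unstimulated KO array, narrowly for array 3. KO LPS array 2 differed from the lowest of the other 11 by −1.41.

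Of the other H2-K1 probe sets, 1427746_PM_x_at spanned 7.92 to 8.49 over the other 11 arrays with KO LPS array 2 at 7.05, and 1424948_PM_x_at spanned 7.05 to 7.43 with that array at 6.35. H2-K1 1450534_PM_x_at did not show it: it spanned 3.75 to 4.35 over the 11 arrays with KO LPS array 2 at 4.29. Among the H2-D1 probe sets, 1450170_PM_x_at, 1427651_PM_x_at and 1452544_PM_x_at read 6.61, 4.16 and 3.76 on that array, none of them the lowest of the 12. H2-D1 1451934_PM_at read 3.20 there and 3.66 to 3.89 on the others. Probe sets of 1 gene therefore disagreed on this array. An x in the name of an Affymetrix probe set marks probes that can also match other transcripts, and class I genes are close copies, so the assignment of these values to H2-K1 or H2-D1 alone is uncertain.

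**Figure D1:**
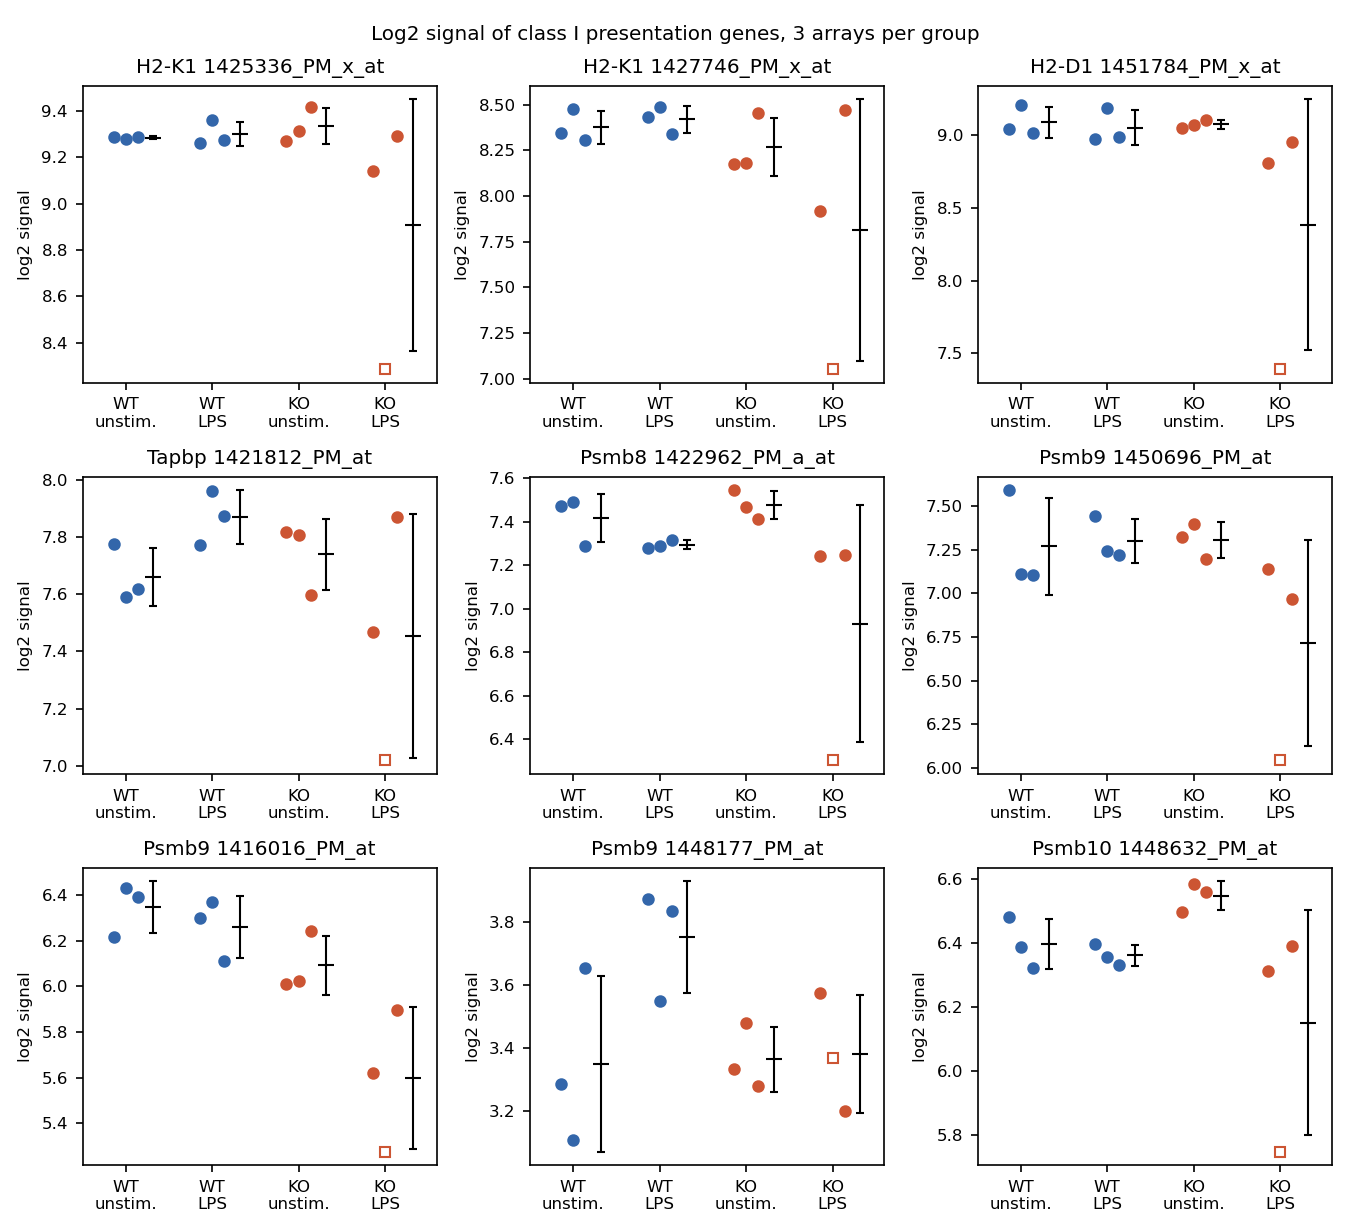
Log2 signal of 9 probe sets (vertical axes, each with its own range) in the 4 groups (horizontal axes); points are arrays, the open square is KO LPS array 2, and the bars are the mean and SD of 3 arrays. The open square is the lowest point in each panel except Psmb9 1448177_PM_at, where it reads 3.37.

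Tapbp, the tapasin gene of the loading complex, had values in WT cells that leaned upward after LPS without passing the test. Probe set 1421812_PM_at read 7.78, 7.59 and 7.62 in unstimulated WT cells and 7.77, 7.96 and 7.87 after LPS. In KO cells it read 7.82, 7.81 and 7.60 without stimulation and 7.47, 7.02 and 7.87 after LPS. The groups overlapped in both genotypes. The dimmer probe set 1450378_PM_at read 4.45, 4.25 and 4.32 in unstimulated WT cells and 4.49, 4.66 and 4.73 after LPS, so its WT groups did not overlap. In KO cells it read 4.56, 4.42 and 4.43 without stimulation and 4.49, 3.79 and 4.68 after LPS.

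Among the immunoproteasome subunits, Psmb8 (LMP7, the chymotrypsin-like subunit) read 7.47, 7.49 and 7.29 in unstimulated WT cells and 7.28, 7.29 and 7.32 in WT cells after LPS with 1422962_PM_a_at. It read 7.54, 7.47 and 7.41 in unstimulated KO cells and 7.24, 6.30 and 7.25 in KO cells after LPS. The KO arrays after LPS lay below all unstimulated KO arrays and below all WT LPS arrays. Its other probe set, 1444619_PM_x_at, had a mean of 1.69, below the table's median, and spanned 1.47 to 1.84 over 11 arrays with KO LPS array 2 at 2.15.

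Psmb10 (MECL-1, the trypsin-like subunit) read 6.48, 6.39 and 6.32 in unstimulated WT cells, 6.40, 6.36 and 6.33 in WT cells after LPS, 6.50, 6.58 and 6.56 in unstimulated KO cells and 6.31, 5.75 and 6.39 in KO cells after LPS with 1448632_PM_at. The unstimulated KO arrays were the highest of the 4 groups, all above the unstimulated WT arrays, and the groups after LPS overlapped between genotypes.

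Psmb9 (LMP2, the subunit that replaces the caspase-like one) had 3 probe sets under its name that did not vary alike. Probe set 1450696_PM_at read 7.59, 7.11 and 7.10 in unstimulated WT cells, 7.45, 7.24 and 7.22 in WT cells after LPS, 7.32, 7.40 and 7.20 in unstimulated KO cells and 7.14, 6.04 and 6.97 in KO cells after LPS. Its unstimulated groups overlapped, and its KO arrays after LPS lay below the WT arrays after LPS.

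Psmb9 probe set 1416016_PM_at had its highest mean in unstimulated WT cells and its lowest in KO cells after LPS. It read 6.22, 6.43 and 6.39 in unstimulated WT cells (6.35 ± 0.11, SD, n = 3), 6.30, 6.37 and 6.11 in WT cells after LPS (6.26 ± 0.13), 6.01, 6.02 and 6.24 in unstimulated KO cells (6.09 ± 0.13) and 5.62, 5.28 and 5.90 in KO cells after LPS (5.60 ± 0.31). Neighbours in this order overlapped, except that all KO LPS arrays lay below all unstimulated KO arrays. The third probe set, 1448177_PM_at, read 3.29, 3.11 and 3.65 in unstimulated WT cells, 3.87, 3.55 and 3.83 in WT cells after LPS, 3.34, 3.48 and 3.28 in unstimulated KO cells and 3.58, 3.37 and 3.20 in KO cells after LPS, with overlap between all groups compared. The platform table names 1416016_PM_at and 1448177_PM_at from the same expressed sequence. Probe sequences were not used here, so whether 1416016_PM_at reads Psmb9 or its neighbour Tap1 was not checked.

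The comparison of KO with WT cells without stimulation asks whether loss of miR-142 alters these genes at rest. None of the 17 probe sets passed limma's test at an adjusted p of 0.05, where 0.163% of all probe sets tested passed. Their log2 differences ran from −0.26 (Psmb9 1416016_PM_at) to 0.18 (H2-D1 1427651_PM_x_at), with a median of 0.04 against −0.0019 over all probe sets, and the lowest adjusted p was 0.638 by limma. By gene, H2-K1 1425336_PM_x_at differed by 0.05 ± 0.20 (SE, 95% interval −0.38 to 0.48), H2-D1 1451784_PM_x_at by −0.01 ± 0.30 (−0.66 to 0.64) and Psmb8 1422962_PM_a_at by 0.06 ± 0.20 (−0.38 to 0.50). H2-D1 1427651_PM_x_at and Psmb10 had KO arrays all above the WT arrays, as did 8.82% of all probe sets. Without KO LPS array 2, which enters only through the shared spread, the intervals narrowed to −0.15 to 0.25 for H2-K1 and −0.23 to 0.21 for H2-D1, and 0 of the 17 passed, where 0.851% of all did.

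After LPS the differences between KO and WT cells were mostly below 0, and none passed the test. Of the 17 probe sets, 12 lay below 0 and 5 above, with a median of −0.36 against −0.028 over all probe sets. The adjusted-p threshold was passed by 0 of 17 and by 0.322% of all probe sets. An unadjusted p under 0.05 by limma was reached by 7 of the 17, all lower, and by 13.9% of all (7.68% lower), with the lowest adjusted p at 0.0922 for Psmb9 1416016_PM_at. H2-D1 1451784_PM_x_at differed by −0.67 ± 0.30, H2-K1 1427746_PM_x_at by −0.61 ± 0.26 and Tapbp 1421812_PM_at by −0.42 ± 0.17 (limma adjusted p 0.348, 0.324 and 0.315).

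Most of these differences shrank once KO LPS array 2 was left out, though Psmb9 1448177_PM_at hardly moved (−0.37 ± 0.15 and −0.36 ± 0.17). The median over the 17 became −0.079, H2-D1 1451784_PM_x_at −0.17 ± 0.11, H2-K1 1427746_PM_x_at −0.22 ± 0.15, Tapbp 1421812_PM_at −0.20 ± 0.14 and Psmb8 1422962_PM_a_at −0.05 ± 0.10. An unadjusted p under 0.05 by limma was then reached by 2 of the 17, both lower, and by 9.60% of all probe sets (5.03% lower). Those 2 were Psmb9 1416016_PM_at (−0.50 ± 0.13) and H2-K1 1424948_PM_x_at (−0.27 ± 0.12). The adjusted-p threshold was passed by 0, where 0.433% of all did. KO arrays all lay below the WT arrays for 5 probe sets of H2-K1, H2-D1, Psmb8 and Psmb9 with all arrays, where 10.2% of all probe sets did, and for 5 without that array, where 14.7% did. They all lay above the WT arrays for H2-D1 1427651_PM_x_at with all arrays, where 6.89% of all probe sets did, and this probe set differed by 0.17 ± 0.09, and by 0.11 ± 0.10 without that array. Leaving out KO LPS array 3 instead moved the other way: H2-K1 1427746_PM_x_at then differed by −0.94 and Psmb9 1416016_PM_at by −0.81, and both passed (limma adjusted p 0.0461 and 0.0278), while the calls over all probe sets also went up, from 93 to 511 (1.77%).

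**Figure D2:**
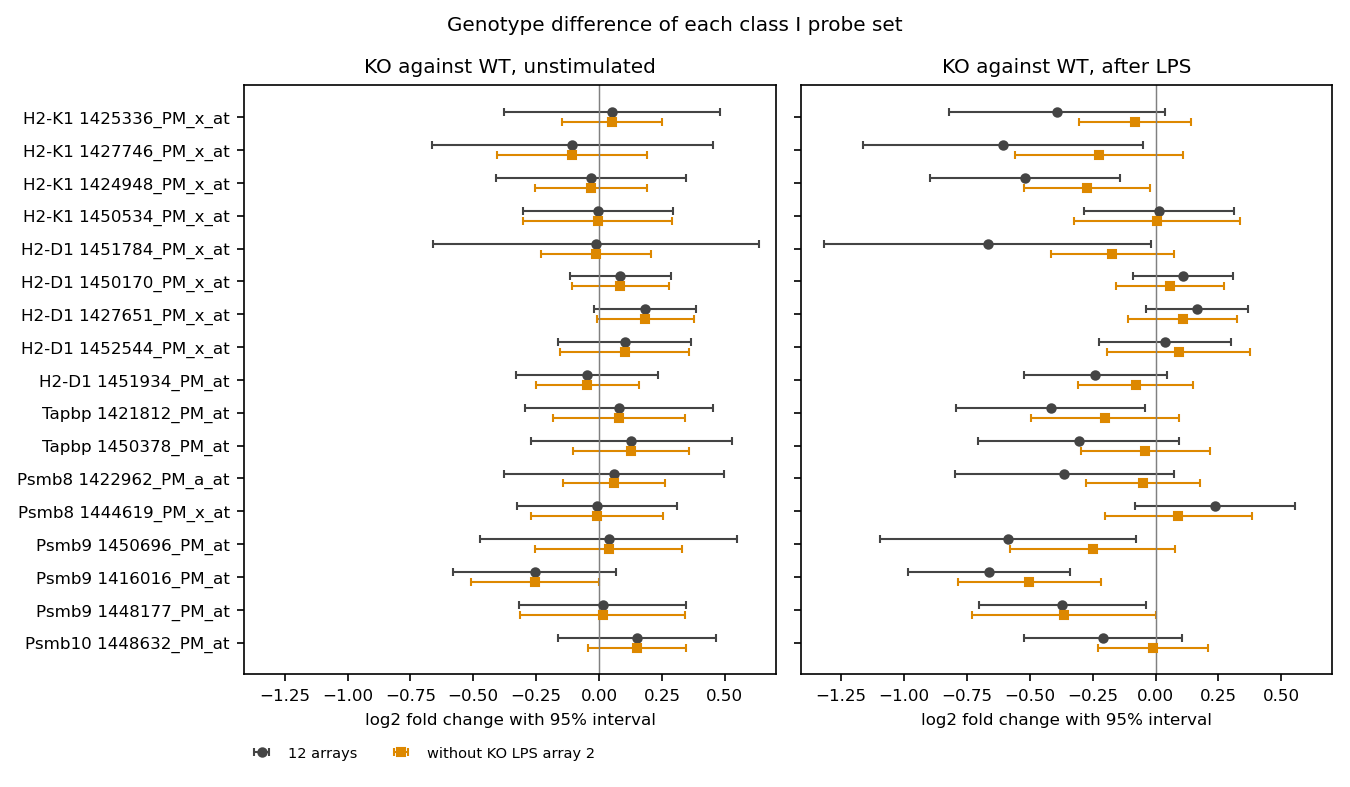
Log2 difference of KO from WT cells (horizontal axes) for the 17 probe sets (vertical axis), unstimulated on the left and after LPS on the right, with 95% intervals; circles use 12 arrays and squares leave out KO LPS array 2. After LPS the median moves from −0.36 to −0.079 when that array is left out, and Psmb9 1416016_PM_at stays furthest below 0 at −0.50.

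In WT cells no class I gene passed the test for a change after LPS, with 0 of the 17 probe sets called, where 0.128% of all did, all of them higher. The median change was 0.03 on the log2 scale and the range −0.12 to 0.40, against a median of 0.0024 over all probe sets. The top of that range was Psmb9 1448177_PM_at at 0.40 ± 0.15 (limma adjusted p 0.877, and 0.548 without KO LPS array 2), the dim probe set, while the brighter Psmb9 1450696_PM_at changed by 0.03 ± 0.23. Tapbp changed by 0.21 ± 0.17 and 0.29 ± 0.18 with its 2 probe sets, H2-K1 1425336_PM_x_at by 0.02 ± 0.20 (95% interval −0.41 to 0.45) and H2-D1 1451784_PM_x_at by −0.04 ± 0.30 (−0.69 to 0.61). Without KO LPS array 2 these intervals were −0.18 to 0.22 and −0.26 to 0.18, and 0 of the 17 passed, where 0.360% of all did. Tapbp 1450378_PM_at alone had LPS arrays all above the unstimulated ones, as did 6.78% of all probe sets.

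In KO cells, where the comparison shares the LPS arrays with that of KO and WT cells after LPS, 12 of the 17 probe sets read lower after LPS and 5 higher, with a median change of −0.29 against −0.022 over all probe sets. None passed, where 0.301% of all did. Psmb8 1422962_PM_a_at changed by −0.54 ± 0.20, Psmb9 1450696_PM_at by −0.59 ± 0.23, Psmb9 1416016_PM_at by −0.49 ± 0.15 and Psmb10 by −0.40 ± 0.14 (limma adjusted p 0.405, 0.442, 0.286 and 0.400). LPS arrays all lay below the unstimulated ones in 6 probe sets, of H2-K1, H2-D1, Psmb8, Psmb9 and Psmb10, where 7.87% of all probe sets did, and all above them in H2-K1 1450534_PM_x_at (0.16 ± 0.14), where 5.58% did.

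Without KO LPS array 2 the median change in KO cells was −0.070 and 0 passed, where 0.464% of all did. The brighter immunoproteasome probe sets then changed by −0.23 ± 0.10 (Psmb8 1422962_PM_a_at), −0.25 ± 0.15 (Psmb9 1450696_PM_at), −0.33 ± 0.13 (Psmb9 1416016_PM_at) and −0.20 ± 0.10 (Psmb10), with limma adjusted p from 0.531 to 0.770. The dimmer probe sets of the same genes changed by 0.06 ± 0.14 (Psmb8 1444619_PM_x_at) and 0.02 ± 0.17 (Psmb9 1448177_PM_at). The count of probe sets with LPS arrays all lower was again 6, against 13.2% of all probe sets, and H2-K1 1450534_PM_x_at differed by 0.15 ± 0.15.

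**Figure D3:**
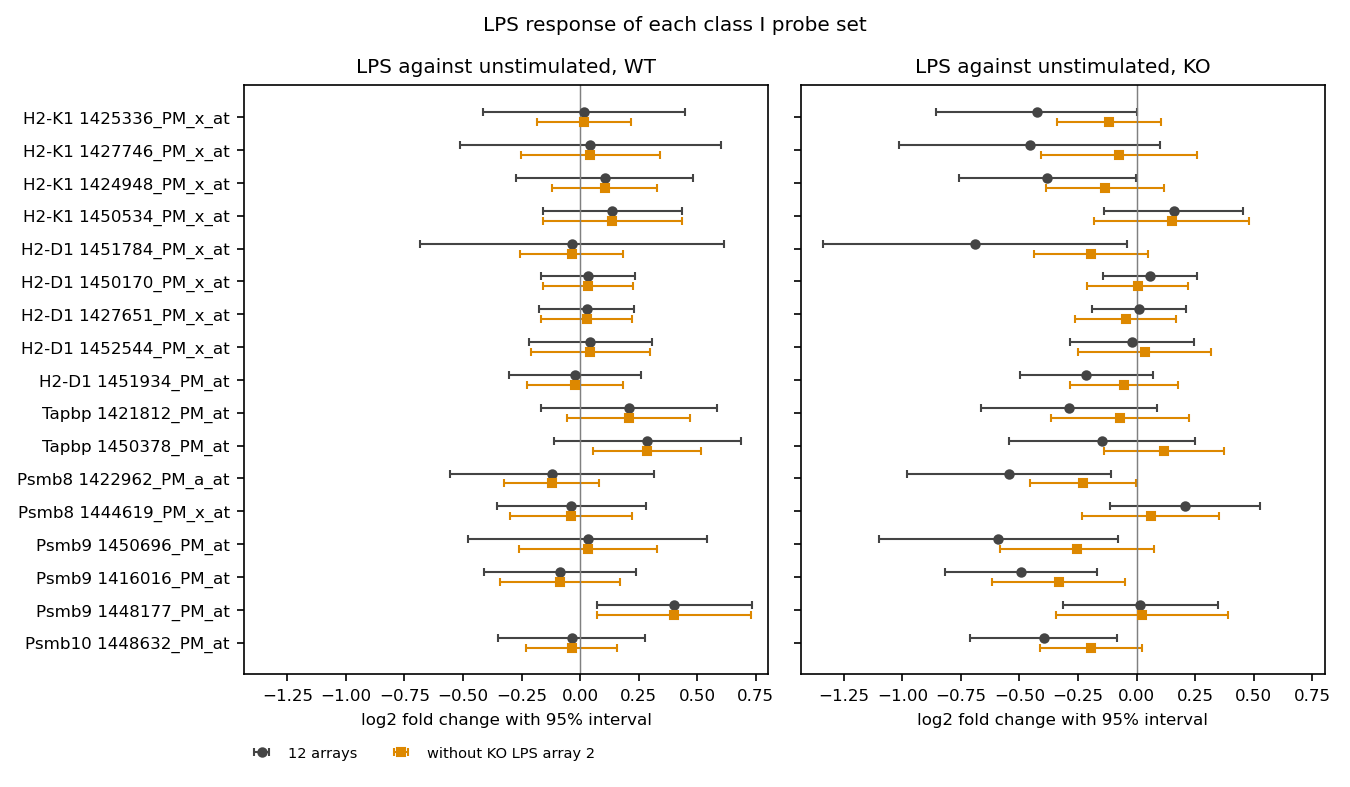
Log2 change after LPS (horizontal axes) for the 17 probe sets (vertical axis) in WT cells on the left and KO cells on the right, with 95% intervals; circles use 12 arrays and squares leave out KO LPS array 2. The WT changes have a median of 0.03, and the KO changes move from a median of −0.29 to −0.070 without that array.

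The difference between both LPS responses, which asks whether miR-142 alters the response, passed for 0 of the 17 probe sets and for 0.00% of all 28898 (1142 at an unadjusted p under 0.05 by limma, 3.95%). The 17 had a median difference of −0.41, against −0.026 over all probe sets, with 14 below 0 and 3 above. Of the 17, 0 reached an unadjusted p under 0.05, and the lowest adjusted p was 0.957 by limma. Without KO LPS array 2, 0 of the 17 passed, with a lowest adjusted p of 0.999, again by limma. The median was then −0.13, against −0.022 over all probe sets, with 15 below 0 and 2 above. Psmb9 1450696_PM_at differed by −0.62 ± 0.33, then by −0.29 ± 0.20, and Tapbp 1421812_PM_at by −0.50 ± 0.24, then by −0.28 ± 0.18. With arrays paired by number, every WT pair moved one way and every KO pair the other for 1 of the 17, H2-K1 1424948_PM_x_at, and for 3.44% of all probe sets.

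With all arrays treated as independent, 1 of the 17 probe sets passed in the average over both stimulations. Of all probe sets, 2.12% passed (0.775% lower). Psmb9 1416016_PM_at was this single call, lower in KO cells, and did not pass with array pairs as a random block. It differed by −0.46 ± 0.11 on the log2 scale, a ratio of 0.728 (limma adjusted p 0.0456). The difference was −0.38 ± 0.09 without KO LPS array 2 (adjusted p 0.0365), −0.26 ± 0.15 in unstimulated cells and −0.66 ± 0.15 after LPS. The other probe sets named Psmb9 gave −0.27 ± 0.17 (1450696_PM_at, limma adjusted p 0.452) and −0.18 ± 0.11 (1448177_PM_at, 0.454). Without KO LPS array 2 they gave −0.11 ± 0.10 and −0.17 ± 0.11 (limma adjusted p 0.688 and 0.516). The call thus rests on 1 of the 3 probe sets of that name. Whether 1416016_PM_at reads Psmb9 or Tap1 was not checked, so the 3 may not read 1 gene. With array number within genotype as a random block, 1416016_PM_at no longer passed (limma adjusted p 0.0693), where 1.40% of all did. It also did not pass without any 1 of the 6 WT arrays, without KO unstimulated array 1 or 2, or without KO LPS array 1, with limma adjusted p up to 0.116. The KO arrays did not all lie below the WT arrays, since KO unstimulated array 3 at 6.24 exceeded WT unstimulated array 1 at 6.22.

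The remaining 16 did not pass. The 17 together had a median of −0.15 with all arrays and −0.016 without KO LPS array 2, against −0.016 and −0.011 over all probe sets. H2-D1 1427651_PM_x_at had KO arrays all above WT arrays in both stimulations, as did 2.41% of all probe sets, with a difference of 0.17 ± 0.07 (limma adjusted p 0.214) and of 0.15 ± 0.07 without KO LPS array 2 (0.315). The bright H2-D1 1451784_PM_x_at differed the other way, by −0.34 ± 0.21, and by −0.09 ± 0.08 without KO LPS array 2.

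Markers of other cells moved with genotype in the same averaged comparison. A marker is called higher or lower here if it passed the adjusted-p threshold. Of all probe sets, 1.35% passed as higher and 0.775% as lower, and 2.07% and 1.28% without KO LPS array 2. In bulk samples a change in the share of a cell type cannot be told apart from a change in its RNA per cell. Of the 10 measured neutrophil markers 8 were higher in KO cells with a median log2 difference of 3.24 (8 and 3.09 without KO LPS array 2), led by Lcn2 at 5.20 ± 0.58 (limma adjusted p 0.00114), and their summed linear signal was 193 to 970 on WT arrays and 2236 to 7595 on KO arrays. Of the 9 measured NK markers 8 were higher with a median of 1.60 (8 and 1.83 without that array), and their sum was 104 to 255 on WT and 907 to 1137 on KO arrays. Elane and Ncr1 were the markers of these lists with a mean below the table's median. The plasma cell gene Jchain was lower (log2 difference −3.54 ± 0.30) and the B cell gene Ms4a1 higher (0.87 ± 0.15), with limma adjusted p 2.19e-04 and 0.0113, and both passed without KO LPS array 2 as well (−3.60 ± 0.31 and 0.92 ± 0.15). The others of the 6 measured did not pass, except Vpreb3 without that array, named after its values were seen.

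Of the 6 measured T cell markers Cd4 was lower (log2 difference −0.64 ± 0.12, and −0.54 ± 0.10 without KO LPS array 2), and none of the 9 macrophage and monocyte or 4 erythroid markers passed in either fit. The summed signal of the 6 platelet markers was 59.0 to 118 on WT arrays and 125 to 624 on KO arrays, without overlap. None of these passed with all arrays, where Ppbp differed by 2.04 ± 0.51 and Pf4 by 1.76 ± 0.42 (limma adjusted p 0.0611 and 0.0521). Without KO LPS array 2 they were higher by 2.20 ± 0.52 and 1.90 ± 0.42 (limma adjusted p 0.0365 and 0.0287), and 3 of the 6 passed, the other being Itga2b, named after its values were seen. Of the dendritic cell markers Xcr1, of cross-presenting cells, was lower (−0.54 ± 0.11, limma adjusted p 0.0247). With KO LPS array 2 left out it was again lower (−0.49 ± 0.11, limma adjusted p 0.0250). Irf8, of the same list, went the other way and passed only in that fit (0.40 ± 0.08). The others of the 11 did not pass in either fit. The sum of the 11 dendritic cell markers ran from 3013 to 3477 on WT arrays and from 3035 to 3314 on KO arrays other than KO LPS array 2, which read 2105. The spiked bioB control of the arrays had log2 means of 8.53 ± 0.23 (SD, n = 3) in unstimulated WT cells, 7.96 ± 0.13 in WT cells after LPS, 7.76 ± 0.29 in unstimulated KO cells and 7.62 ± 0.44 in KO cells after LPS, the order in which the means of Psmb9 1416016_PM_at also stand. The part of these shifts in the Psmb9 value was not tested.

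KO LPS array 2 read low for the bright class I genes and for many other bright probe sets. It held the lowest of 12 values in 11 of the 17 probe sets (64.7%) and in 23.9% of all probe sets. Among probe sets with a mean of at least 7, it was lowest for 7 of 7 from these genes and for 46.4% of 845. Its median difference from the other KO LPS arrays was −0.94 for those 7, against −0.23 over the 845 and −0.034 over all. Whether the control readings of this array account for this was not tested.

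**Figure D4:**
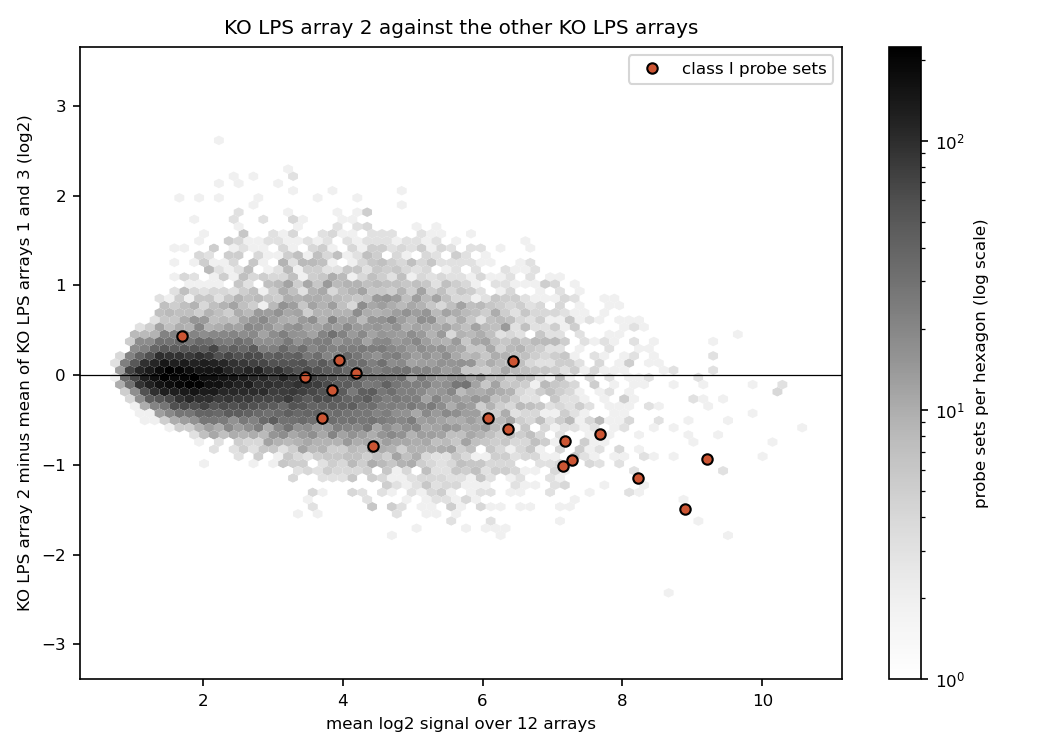
Difference of KO LPS array 2 from the mean of KO LPS arrays 1 and 3 (vertical axis, log2) against the mean log2 signal over 12 arrays (horizontal axis); grey hexagons count all 28898 single-symbol probe sets on a log scale, and circles are the 17 probe sets of class I genes. The 7 brightest circles lie below 0, with a median of −0.94 against −0.23 for all probe sets as bright.

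Other genes of the pathway, taken from lists of 72 genes of which 57 were measured, gave 1 call, in the averaged comparison, where 1.35% of all probe sets were called higher. H2-Q10, a class I gene whose product is known as a soluble protein of the liver, was higher in KO cells. It read 4.64, 5.23 and 4.59 in unstimulated WT cells, 4.60, 4.81 and 4.50 in WT cells after LPS, 6.42, 6.02 and 5.30 in unstimulated KO cells and 5.58, 5.11 and 5.07 in KO cells after LPS. All KO arrays lay above the WT arrays of the same stimulation. The averaged difference was 0.85 ± 0.18 (limma adjusted p 0.0327, 0.0454 with the random block, and 0.0221 without KO LPS array 2). Its difference was 1.10 ± 0.26 unstimulated and 0.61 ± 0.26 after LPS (0.68 ± 0.28 without that array), and neither passed (limma adjusted p 0.158 and 0.319).

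Leaving out KO LPS array 2 raised the averaged calls among the 57 to 3 higher and 1 lower, where 3.36% of all probe sets passed. Cd1d1, which presents lipids to NKT cells, was then lower (log2 difference −0.80 ± 0.16, limma adjusted p 0.0145), against −0.62 ± 0.21 with all arrays (0.170). H2-T10, a nonclassical class I gene, was then higher by 0.43 ± 0.11 (0.0452, against 0.0562 with all arrays). Class I genes are close copies, and whether the probe sets of H2-T10 and H2-Q10 also read other class I genes was not checked. Irf8, a transcription factor that is also a dendritic cell marker and is named after its values were seen, was then higher by 0.40 ± 0.08 (0.0218, against 0.292 with all arrays). These fits held no block. With the random block and all arrays, Cd1d1 and H2-T10 did not pass (limma adjusted p 0.223 and 0.0759).

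None of the 57 passed in the other comparisons. The constitutive catalytic subunits Psmb5, Psmb6 and Psmb7, which the immunoproteasome subunits replace, had a median difference of KO from WT after LPS of −0.36. It was 0.0070 without KO LPS array 2. With 1 probe set per gene, as used for these lists, the 6 measured class I genes had medians of −0.40 and −0.13. The 4 measured proteasome activator and assembly genes, among them Psme1 and Psme2, had medians of −0.49 and −0.16. In WT cells after LPS, Ifngr1, a chain of the interferon-gamma receptor, changed by −0.53 ± 0.14 and Irf1, an activator of class I genes, by 0.29 ± 0.19 (limma adjusted p 0.445 and 1.00). In KO cells P4hb, an endoplasmic reticulum disulfide isomerase, changed by −0.75 ± 0.26, and by −0.37 ± 0.16 without KO LPS array 2. Rela, an NF-kB subunit, differed between genotypes after LPS by −0.63 ± 0.29, and by −0.19 ± 0.17 without that array. Tapbpl and Calr, both of peptide loading, had differences between LPS responses of −0.64 ± 0.24 and −0.58 ± 0.28 (limma adjusted p 0.957 for both), and of −0.56 ± 0.24 and −0.31 ± 0.20 without KO LPS array 2.

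The genes whose pattern was most like the mean pattern of the measured class I genes were ranked by the root mean square log2 difference over arrays among 8543 genes, as a description. Over 12 arrays these were Morf4l1 (0.0811), Aldh16a1 (0.0855), Plbd1 (0.0863), Ap1m1 (0.0903) and Arf1 (0.0909). Each lay between −0.96 and −1.12 on KO LPS array 2, where the class I mean lay at −1.05. The ranking included that array, so this nearness follows from how the genes were picked. Over the 11 other arrays the 5 most alike were 9130221H12Rik (0.0445), Cmpk1 (0.0504), Epn1 (0.0573), Rslcan18 (0.0621) and Setd5 (0.0622), so no gene was in both sets of 5. On the other 11 arrays the class I mean stayed between −0.17 and 0.09.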

How the data were processed

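Splenic dendritic cell RNA was amplified with oligo(dT) and random primers and hybridised to 12 Affymetrix arrays, per the labels' protocols. The deposited values are log2 signals that the authors normalised with RMA, per the submitters' processing notes (its version is not stated there). The submitters' descriptions speak of T cells but their titles, sources and cell type fields of dendritic cells, and the latter were followed. Of 45141 probe sets, 104 controls, 551 with several symbols and 15588 without a listed symbol were left out, and 28689 of the 28898 kept matched RefSeq by Entrez number.

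One model of 4 group means was fitted over all 28898 with limma 3.58.1 in R 4.3.3 (lmFit and eBayes, 8 residual degrees of freedom), with no filter on dim probe sets. A probe set was called at a Benjamini-Hochberg adjusted p under 0.05 within each of 6 contrasts. Values after ± are SEs of a difference unless marked SD. In data simulated for KO versus WT after LPS with 28898 probe sets, 10% of true log2 shifts of 0.5 were recovered, 76% of shifts of 1 and 100% of shifts of 2, with 7 false calls. The simulation drew independent normal noise with the same spread on every array for a given probe set. It held no pairs and no array like KO LPS array 2, so its figures need not hold for these data. The number of arrays limits the precision, and p-values measure the spread between these arrays.

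The genes and lists were chosen with earlier results of these data known. All listed genes with their probe sets were named. Other pathway genes were named as up to 3 called and 2 not called with the largest change per contrast, and up to 2 markers per cell type list by their averaged genotype difference. For lists, the probe set with the highest mean stood for a gene.

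After group means were removed, the correlation of same-numbered arrays was 0.352, 0.220 and 0.385 for WT pairs, and for KO pairs 0.263, 0.250 and 0.387, so numbers were taken as pairs within genotype. Across genotypes they correlated at −0.0039 to 0.197 and were not paired. The main fit held no block, so its averaged comparison treated the arrays of a pair as independent. That comparison called 614 probe sets without a block and 406 with the random block. Values of the cell type markers, Cd1d1, H2-T10 and Irf8 are given from fits without a block unless the random block is named. Alternatives left out each array, kept 1 probe set per gene, dropped dim probe sets, normalised again, weighted arrays, used a trended robust prior, fitted groups apart or added blocks (duplicateCorrelation, statmod 1.5.0, correlation 0.162).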

Additional observations from a re-analysis of the deposited data

Results flagged for a closer look

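H2-K1 1424948_PM_x_at was the one probe set of these genes for which every pair of arrays moved one way with LPS in WT cells and the other way in KO cells, as did 3.44% of all 28898 probe sets. Pairing arrays by number, WT cells changed by 0.01, 0.24 and 0.06 on the log2 scale and KO cells by −0.09, −0.90 and −0.15, the −0.90 being KO LPS array 2. The KO response less the WT response was −0.49 ± 0.25, and −0.24 ± 0.16 without that array. By limma the difference did not pass (adjusted p 0.957). Other H2-K1 probe sets did not share the pattern.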

How the results depend on the processing

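The count of called class I probe sets stayed at 0 under every alternative run for KO versus WT unstimulated, for LPS in WT, for LPS in KO and for the difference of LPS effects. For KO versus WT after LPS it ran from 0 to 2 when 1 array was left out, the 2 coming without KO LPS array 3, where calls over all probe sets went from 93 to 511. For KO versus WT averaged over stimulation it was 1, ran from 0 to 1 when 1 array was left out, and was 0 with 1 probe set per gene (1416016_PM_at is not the one kept) and 0 with a trended robust prior; the cause of the latter was not tested. Blocks for the pairing of array numbers within genotype gave 0 calls with the random replicate block and 0 with that block without KO LPS array 2. With the fixed replicate block 0 of the 17 passed for LPS in WT or in KO, while calls over all probe sets went from 37 to 106 and from 87 to 198, and the blocks changed no other call on the class I probe sets.

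Over 54 log2 differences followed for 9 probe sets, 1136 values under alternatives kept their direction and side of the threshold, 12 lost the call, 2 gained it and 29 changed sign. The sign changes all concerned differences that did not pass, and their cause was not tested. Without 1 array in turn, the unstimulated KO versus WT difference ran from −0.11 to 0.17 for Psmb9 1448177_PM_at, from −0.045 to 0.20 for Psmb9 1450696_PM_at, from −0.049 to 0.047 for H2-D1 1451784_PM_x_at and from −0.0036 to 0.096 for Psmb8 1422962_PM_a_at. LPS in WT ran from −0.014 to 0.035 for H2-K1 1425336_PM_x_at, from −0.11 to 0.024 for H2-D1 1451784_PM_x_at, from −0.049 to 0.19 for Psmb9 1450696_PM_at and from −0.073 to 0.0061 for Psmb10. LPS in KO ran from −0.081 to 0.11 for Psmb9 1448177_PM_at, and the averaged difference from −0.23 to 0.0055 for Psmb8 1422962_PM_a_at and from −0.090 to 0.071 for Psmb10. With quantile normalization once more, Psmb9 1450696_PM_at read −0.0073 and Psmb9 1448177_PM_at −0.0049 in unstimulated KO versus WT, while LPS in WT gave −0.0048 for H2-K1 1425336_PM_x_at, −0.024 for Psmb9 1450696_PM_at and −0.0072 for H2-K1 1427746_PM_x_at. With arrays shifted to equal bright medians, Psmb9 1450696_PM_at read −0.0065 and Psmb9 1448177_PM_at −0.029 unstimulated. For the averaged difference, array weights gave 0.032 for Psmb10, and the random replicate block without KO LPS array 2 gave 0.0051 for Psmb8 and 0.073 for Psmb10.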
